A study of Daphnia magna with 2 samples.

Results

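A group of 8 genes of the water flea Daphnia magna was described across cells of dissociated whole animals. The group held 8 of the 33957 genes counted. They were chosen by their values in these same cells, because they had been among the leading genes of 1 large cell group, so their joint detection is given below as a description and carries no test. Each gene is written with the human and fly symbols that the deposited gene lists give it. The 7 members described one by one were CASZ1/CAS (DAPMA1EVG025637), GRIP2/GRIP (DAPMA1EVG020346), ROR1/ROR (DAPMA1EVG011614), MAF/TJ (DAPMA1EVG018308), NWD2/CG10132 (DAPMA1EVG034245), G6PC/G6P (DAPMA1EVG016407) and FN1 (DAPMA1EVG013951), which has a human symbol only. They are called CAS, GRIP, ROR, TJ, CG10132, G6P and FN1 here. Totals of the group and numbers of members per barcode count all 8.

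The genes differ in what their relatives are known to do. In Drosophila, castor is a zinc-finger transcription factor of late-born neuroblast lineages, and traffic jam is a large Maf transcription factor of the somatic cells of the gonad. Mammalian GRIP proteins are PDZ-domain scaffolds that bind ionotropic glutamate receptors, the ligand-gated channels of excitatory synapses. ROR proteins are receptor tyrosine kinases that bind Wnt ligands. Glucose-6-phosphatase carries out the last step by which cells release free glucose, and vertebrate fibronectin is a glycoprotein of the extracellular matrix. Of these 7, GRIP is the one whose relatives are known from glutamate signalling.

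The study used inDrops, in which single cells are captured in droplets with barcoded beads and each captured mRNA receives a unique molecular identifier (UMI). The label of the first sample names young animals, and that of the second names males, females, young and old, so they are called the young and the mixed sample; both were whole bodies dissociated with collagenase at 4 mg/ml. There was 1 sample per group, so no difference between the samples has a replicate check and no p-value is given. Each barcode carried 1 of 10 library codes. The young sample had the 3 codes CH1, CH2 and Y2. The mixed sample had 7, which were MY1 and MY2, FYB and FYH, FO1 and FO2, and F4W. The files do not say what the codes stand for.

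Cells were taken to be barcodes of 500 UMIs or more, which left 2099 young and 2253 mixed ones. They held 2314350 and 2779211 UMIs. Per code the kept barcodes ran from 557 in Y2 to 830 in CH1 and from 41 in F4W to 1103 in FYB. Levels are given as CPM, the UMIs of a gene per 1000000 UMIs of the kept barcodes summed, with exact Poisson intervals at 95%; shares of barcodes have exact Clopper-Pearson intervals at 95%. Both cover counting error only. Capture can differ between genes, so levels were compared for 1 gene between libraries and not between genes. In a sum over cells, fewer cells with a gene and less RNA per cell cannot be told apart.

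Together the members took 1120 CPM of the young sample and 613 CPM of the mixed sample. Within the young sample the summed level was 1132 CPM in CH1, 1269 CPM in CH2 and 857 CPM in Y2. Within the mixed sample it was highest in FO2 at 1207 CPM and FO1 at 1084 CPM, followed by FYB at 861 CPM and F4W at 649 CPM. FYH had 299 CPM, MY1 192 CPM and MY2 154 CPM. FO1, FO2 and FYB therefore lay within the range of the young codes, and the other 4 mixed codes lay below it.

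TJ, the large Maf factor, differed most between the samples. It had 82.4, 73.5 and 85.7 CPM in CH1, CH2 and Y2, values whose intervals overlapped. In the mixed sample it had 100 CPM in FO1 (interval 48.1 to 185), 29.0 CPM in FO2, 28.6 CPM in FYB and 9.19 CPM in FYH. F4W, MY1 and MY2 had no TJ count. A count of 0 allowed up to 74.8 CPM in F4W, 9.79 CPM in MY1 and 4.87 CPM in MY2, taking 3 counts as the limit. The summed level was 79.9 CPM (68.8 to 92.3) in the young sample and 19.8 CPM (14.9 to 25.8) in the mixed sample, or 4.04-fold higher in the young sample (2.97 to 5.56). TJ was the only member past a 4-fold difference, 1 of 8 members, while 24.7% of the 8011 genes with 50 counts or more in all passed it in either direction. The call rested on single codes: TJ was under 4-fold without CH1, Y2, F4W, FYH, MY1 or MY2, each left out alone, and without FYB the mixed level was 11.7 CPM.

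CAS, the castor relative, had 122, 88.9 and 89.6 CPM in CH1, CH2 and Y2. FO1 had 140 CPM and FO2 81.3 CPM, against 36.9 CPM in FYB, 24.9 CPM in F4W and 18.4 CPM in FYH. MY1 and MY2 had 1 count each. FO1 thus lay above the highest young code and FO2 below the lowest, both with intervals that overlapped those of the young codes, while FYB lay further below and MY1 and MY2 were near the counting limit. Over the samples CAS had 102 CPM (89.8 to 116) and 30.2 CPM (24.1 to 37.4), a ratio of mixed over young of 0.295 (0.227 to 0.380).

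GRIP, the scaffold, had 71.9, 55.7 and 49.5 CPM in CH1, CH2 and Y2, with overlapping intervals. It had 151 CPM (84.3 to 248) in FO1, 139 CPM (89.2 to 207) in FO2, 74.8 CPM in F4W, 69.3 CPM in FYB and 50.5 CPM in FYH. MY1 had 3.26 CPM and MY2 6.49 CPM. The summed levels were 60.9 CPM (51.3 to 71.9) and 54.0 CPM (45.7 to 63.3), and the interval of their ratio held 1 (0.886, 0.699 to 1.12). Without MY1 and MY2, left out after their values were seen, the ratio was 1.28 (1.01 to 1.63).

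ROR, the receptor kinase, was the most even member in the young sample, at 53.9, 56.9 and 53.4 CPM. Among the mixed codes it had 90.3 CPM in FO1, 64.8 CPM in FYB, 58.0 CPM in FO2 and 36.8 CPM in FYH. Its lowest levels were 24.9 CPM in F4W, 13.0 CPM in MY1 and 1.62 CPM in MY2. The summed levels were 54.9 CPM (45.7 to 65.3) and 42.8 CPM (35.5 to 51.2), with a ratio of 0.780 (0.602 to 1.01) whose interval held 1. Without MY1 and MY2 the ratio was 1.12 (0.861 to 1.45). For GRIP and ROR the samples were therefore not told apart, and the position of the ratio relative to 1 changed with these codes.

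CG10132 stood out in Y2 among the young codes. It had 80.3 CPM in CH1 and 79.5 CPM in CH2 but 221 CPM (183 to 265) in Y2. Of the mixed codes, FO2 had 110 CPM and FYB 103 CPM, while F4W, FO1, FYH, MY1 and MY2 lay between 18.4 and 40.1 CPM. The sums were 112 CPM (98.7 to 126) and 68.4 CPM (59.0 to 78.8), a ratio of 0.611 (0.504 to 0.740).

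G6P, the glucose-6-phosphatase, had 179, 270 and 204 CPM in CH1, CH2 and Y2. FYB had 224 CPM (199 to 251) and FO2 157 CPM, and MY2 had the lowest level, 22.7 CPM (12.4 to 38.1). Summed, it had 218 CPM (199 to 238) and 139 CPM (126 to 154), a ratio of 0.639 (0.559 to 0.731). Without FYB, the code with most barcodes, the mixed level was 62.0 CPM and the ratio 0.285. FYB also carried the mixed levels of ROR and CG10132: without it they were 22.7 and 36.5 CPM, and the ratios 0.414 and 0.326.

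FN1 had a distribution of its own. It had 200 CPM in CH1 and 208 CPM in CH2, and 24.8 CPM (13.2 to 42.4) in Y2. In the mixed sample it had 181 CPM in FO1, 104 CPM in FO2 and 74.8 CPM in F4W, but 24.9 CPM (17.1 to 34.9) in FYB and no count in FYH. MY1 and MY2, where every other member was low, had 97.9 CPM (66.0 to 140) and 84.4 CPM (63.0 to 111). In the barcodes under 500 UMIs of MY1 and MY2 it had 107.8 CPM (76.3 to 148) and 65.5 CPM (44.5 to 93.01), so the level in kept barcodes was 0.908 and 1.29 times that background, with overlapping intervals. FN1 was thus low in Y2, FYB and FYH, and most of the group's counts in MY1 and MY2 were FN1 at about the level of the small barcodes. The sums were 163 CPM (147 to 180) and 55.4 CPM (47.0 to 64.9), a ratio of 0.340 (0.280 to 0.411). Without FYB the mixed level was 83.3 CPM, the ratio 0.511 and the share of barcodes with FN1 8.09% in place of 5.37%.

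**Figure D1:**
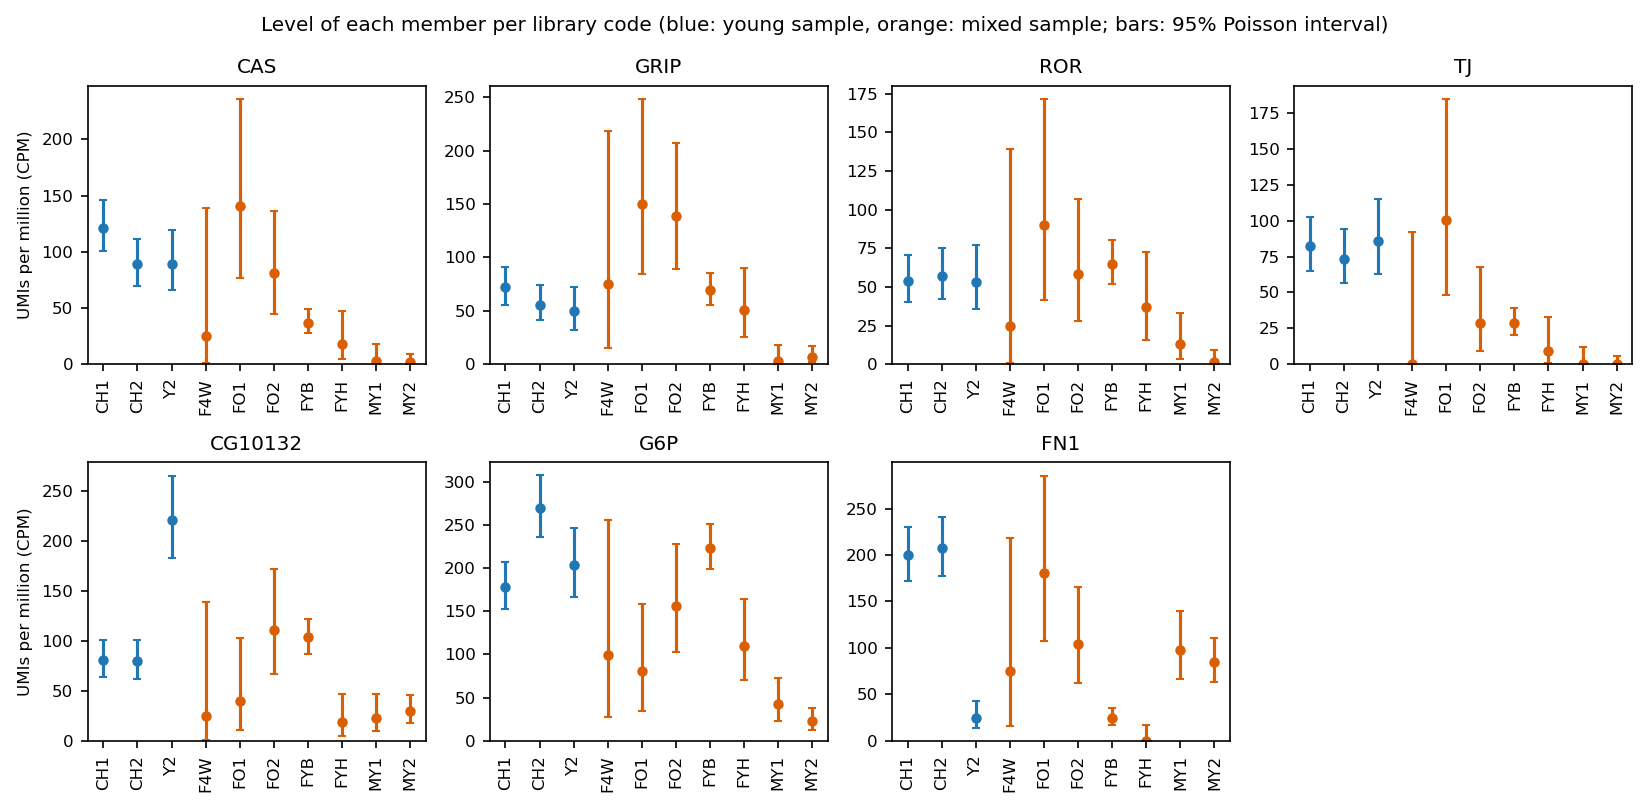
Level of each member in CPM (y axis, linear, a scale of its own for each gene) in the 10 library codes (x axis), with bars for the 95% Poisson interval; blue codes belong to the young sample and orange codes to the mixed sample. MY1 and MY2 lie near 0 for CAS, GRIP and TJ but at 97.9 and 84.4 CPM for FN1, and Y2 stands apart for CG10132 and FN1.

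The 8 members had a median log2 ratio of mixed over young of -0.70, and the 8011 genes tested one of 0.52, and all 8 members lay below the median of the genes tested. None of the 8 had every mixed code below every young code, which 10.9% of the genes did. Scaling by TMM factors moved all log2 ratios by 0.42, to medians of -1.12 and 0.10. The sums over every deposited barcode, the small ones included, gave ratios above 1 for GRIP (1.21), ROR (1.03) and G6P (1.40).

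Barcodes under 500 UMIs, which include droplets without a cell, measured how much of each gene lay outside the kept cells. In the young sample the level in kept barcodes was 2.42 (TJ) to 6.10 (CG10132) times that in the small barcodes. In the mixed sample the factor was 4.06 for CG10132 and 3.03 for ROR, but 1.12 for G6P, which had 139 CPM in kept and 124 CPM in small barcodes. The summed level of G6P in mixed cells therefore stood close to that of the small barcodes. Within mixed cells it ran from 62.3 CPM with none of the other members to 1162 CPM with at least 3. The small barcodes of the samples were unlike. There were 440269 young ones, 59936 of them without a count, and 46593 mixed ones, each with a count. The factors were therefore not compared between the samples. In MY1 the summed members had 192 CPM in kept and 193 CPM in small barcodes.

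The shares of kept barcodes with at least 1 UMI did not always move with the levels: G6P had the lower level in the mixed sample but about the same share. In the young sample they were 11.5% (FN1), 8.91% (G6P), 7.91% (CG10132), 7.34% (CAS), 6.57% (TJ), 5.48% (GRIP) and 4.76% (ROR). In the mixed sample they were 9.05% for G6P, 5.37% for both CG10132 and FN1, 4.75% for GRIP, 4.39% for ROR, 2.84% for CAS and 1.95% for TJ. Without FYB the mixed shares were 5.65% for G6P, 3.57% for CG10132, 2.78% for ROR and 1.13% for TJ. The shares were also read in barcodes with papilin, where the members were scarcer. In the 225 young barcodes with at least 3 UMIs over the papilin genes SPINT3/PPN (DAPMA1EVG017704) and PAPLN/PPN (DAPMA1EVG018391), whose median was 1111 UMIs, the shares were 0.889% for CG10132 and FN1, 0.444% for TJ, 1.78% for CAS, 2.22% for ROR, 3.11% for GRIP and 5.33% for G6P. In the 1706 young barcodes without papilin, whose median was only 785.5 UMIs, they were 9.26% for CG10132, 13.4% for FN1, 7.91% for TJ, 8.56% for CAS, 5.28% for ROR, 6.10% for GRIP and 9.26% for G6P. Papilin is an extracellular matrix protein made by hemocytes in Drosophila. These barcodes were chosen after the co-detection below had been seen. The digestive class held the members too: of its 51 young barcodes, median 2920 UMIs, 5.88% held CAS, 5.88% TJ and 21.6% FN1, and of its 139 mixed barcodes, median 1927 UMIs, 1.44% held CAS, 10.1% FN1, 8.63% G6P and none TJ.

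Cells with several members were more frequent than their single frequencies give. In the young sample 174 of 2099 barcodes (8.29%, 7.15 to 9.55) held at least 3 of the 8, and in the mixed sample 98 of 2253 (4.35%, 3.55 to 5.28). If members were spread independently within each code and each of 3 depth classes (with bounds at 1000 and 2000 UMIs), 69.2 and 31.0 barcodes were expected. The excess was largest for many members: 54 young and 25 mixed barcodes held at least 5, against 1.17 and 0.493 expected. As many as 7 members were found together in 4 young barcodes and 6 in 10 mixed ones, and no barcode held all 8. After thinning every barcode to 500 UMIs, 70 young (3.33%) and 38 mixed barcodes (1.69%) held at least 3, with 9.20 and 3.67 expected.

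**Figure D2:**
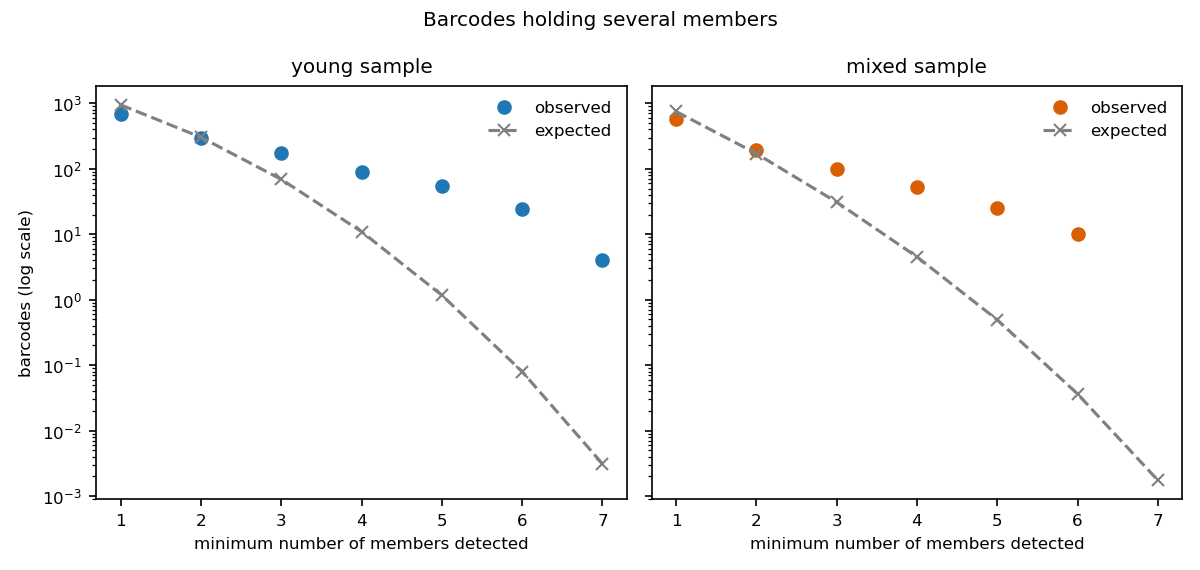
Number of kept barcodes (y axis, log scale) that hold at least the given number of members (x axis), observed as filled circles and expected for independent detection within code and depth class as grey crosses, in the young (left) and mixed sample (right). For at least 1 member the observed numbers lie below the expected ones, 693 young and 581 mixed barcodes against 951 and 752. They lie close together for 2 members, 299 and 193 against 304 and 171. From 3 members on the observed numbers lie above (no mixed barcode held 7), where 174 young and 98 mixed barcodes stand against 69.2 and 31.0.

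The barcodes with at least 3 members came from most codes. They made up 13.8% of FO2 (20 of 145), 10.3% of FO1 (9 of 87), 10.2% of CH1 (85 of 830), 9.27% of CH2 (66 of 712), 5.89% of FYB (65 of 1103) and 4.13% of Y2 (23 of 557). F4W and FYH had 2 each, and MY1 and MY2, with 246 and 452 barcodes, had 0. Without MY1 and MY2 the mixed share was 6.30% (5.15 to 7.63). These barcodes held 58.6% of all member UMIs in the young and 52.3% in the mixed sample. They were deeper than others, with medians of 1355.5 and 1404.5 UMIs against 746 and 871.5 UMIs in barcodes with no member; doublets were not removed, and their part in these shares was not tested.

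All 28 pairs of members were found together more often than expected. Over both samples the pairs were seen 1966 times against 587 expected within code and 729 expected within code and depth class. The median ratio over the pairs was 3.28 within code, 2.66 within code and depth class, and 3.32 within code after thinning to 500 UMIs. With depth classes the ratio ran from 1.69 to 3.70 and all 28 intervals lay above 1. In the young sample 27 of 28 intervals lay above 1 and in the mixed sample 28 of 28. The ratio was lower with depth classes than without them and stayed above 1 for each pair.

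Over both samples CAS had the highest median ratio with the others, 3.38. CAS was also highest in the young sample, at 3.33. In the mixed sample TJ (3.70) and ROR (3.30) lay above CAS (3.04). The pairs below are given over both samples. CAS and GRIP shared 64 barcodes against 17.7 expected with depth classes (3.62, 2.79 to 4.63), and CAS and TJ 56 against 15.6 (3.58, 2.70 to 4.65). The 64 barcodes were 29.4% of those with CAS and 28.8% of those with GRIP. CAS and CG10132 shared 84 against 24.9 (3.38, 2.70 to 4.18) and CAS and ROR 52 against 16.1 (3.24, 2.42 to 4.24). The castor relative thus shared cells with the Maf factor, the scaffold and the receptor kinase alike.

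G6P had the lowest median ratio with the others within code and depth class, 2.24 over both samples. After thinning, G6P and GRIP were nearly level over both samples, at 2.81 and 2.83. GRIP was then the lower of them in the single samples. It had 2.92 (young) and 2.10 (mixed), against 3.08 and 2.44 for G6P. The r with the number of other members, given below, was also lower for GRIP, 0.147 against 0.201 for G6P. G6P and FN1 shared 66 barcodes against 39.2 expected (1.69, 1.30 to 2.14), and CG10132 and G6P 64 against 36.3 (1.76, 1.36 to 2.25). With TJ it shared 53 against 20.1 (2.64, 1.97 to 3.45). The order of the pairs was not the same in both samples: ROR with TJ, at 1.44, was the lowest of the young sample but stood at 3.36 in the mixed one. The difference between the samples was not tested.

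**Figure D3:**
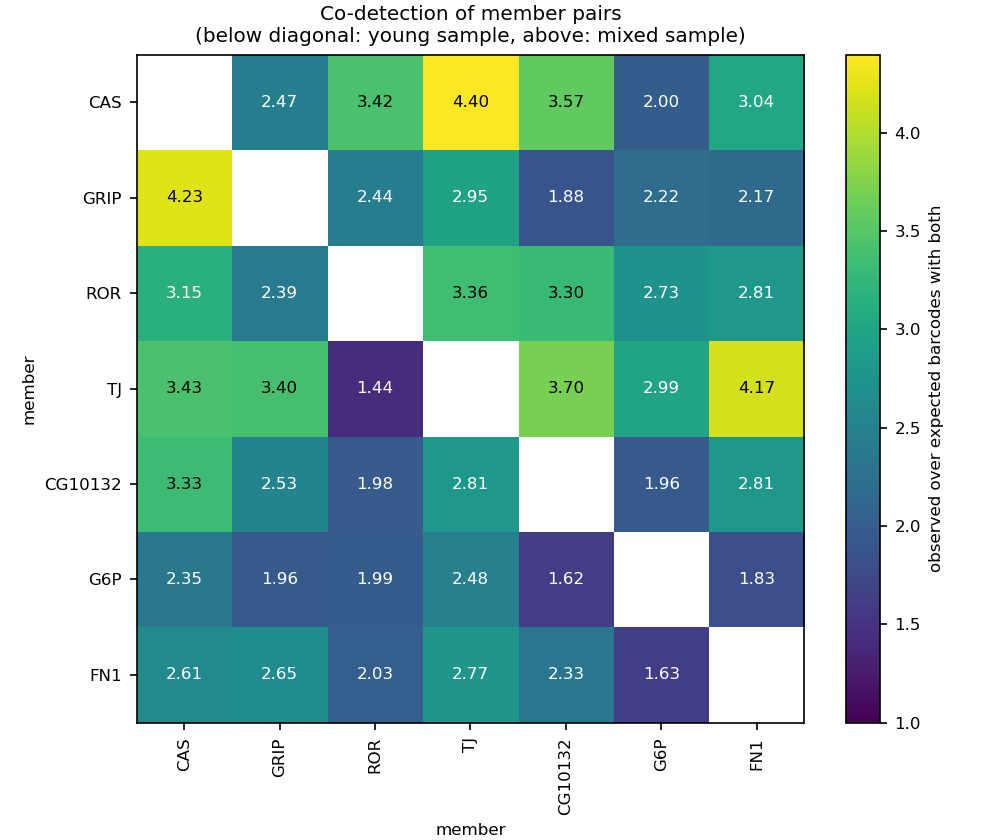
Observed over expected number of barcodes with both members of a pair (colour and printed value), expected within code and depth class, below the diagonal in the young sample and above it in the mixed sample, for 7 members. Every value is above 1; the lowest is ROR with TJ in the young sample (1.44) and the highest CAS with TJ in the mixed sample (4.40).

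Joint detection was described per code as well. With depth classes, the ratio over all pairs was 2.71 in CH1, 2.56 in CH2 and 2.69 in Y2, and 2.77 in FO1, 2.25 in FO2, 3.15 in FYB and 3.21 in FYH. The interval of FYB (2.87 to 3.44) lay above those of CH2 (2.34 to 2.80) and FO2 (1.84 to 2.72). All other intervals of these codes overlapped. F4W, with 41 barcodes, had 14 shared detections against 6.33 expected. In MY1 the members met 1 time against 4.25 expected (0.235, 0.00596 to 1.31) and in MY2 3 times against 6.50 (0.462, 0.0953 to 1.35). Both intervals held 1. Of the barcodes with FN1, 78 of 118 in CH1, 22 of 28 in FYB and 10 of 12 in Y2 held another member. In MY1 that was true of 1 of 22 and in MY2 of 3 of 42. FN1 thus seldom met the other members in MY1 and MY2, where they had few counts. These numbers were too small to tell its detection there from independent detection.

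Detection of each member was then read against the number of the other 7 in the same barcode. CAS was found in 1.75% of young barcodes with none of the others and in 54.7% (46.0 to 63.3) of the 137 with at least 3 others; in the mixed sample it was 1.12% and 28.4% (19.3 to 39.0). TJ went from 3.10% to 31.8% and from 0.476% to 22.2%. The castor relative had the steepest step of the 7 in the young sample.

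For the other members the share with at least 3 others was also above that with none. It was 29.5% and 26.3% for GRIP, 19.1% and 39.0% for ROR, 39.6% and 39.3% for CG10132 and 30.7% and 48.1% for G6P in the young and mixed samples. FN1 reached 47.1% in the young sample, from 5.64% with no other member, and 31.8% from 4.18% in the mixed sample. After thinning to 500 UMIs, CAS was found in 29.1% of the 55 young barcodes with at least 3 others. It was found in 2 of 27 mixed ones, so the mixed value rested on few cells. Thinned shares of GRIP were 9.80% and 3.33% in the young and mixed samples, against 1.28% and 1.84% with none. Those of FN1 were 22.9% and 6.06%, against 3.28% and 2.35%. The mixed ones rested on 1 of 30 and 2 of 33 barcodes. Each member named here kept the higher share with at least 3 others. The unthinned steps above were not matched for depth.

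**Figure D4:**
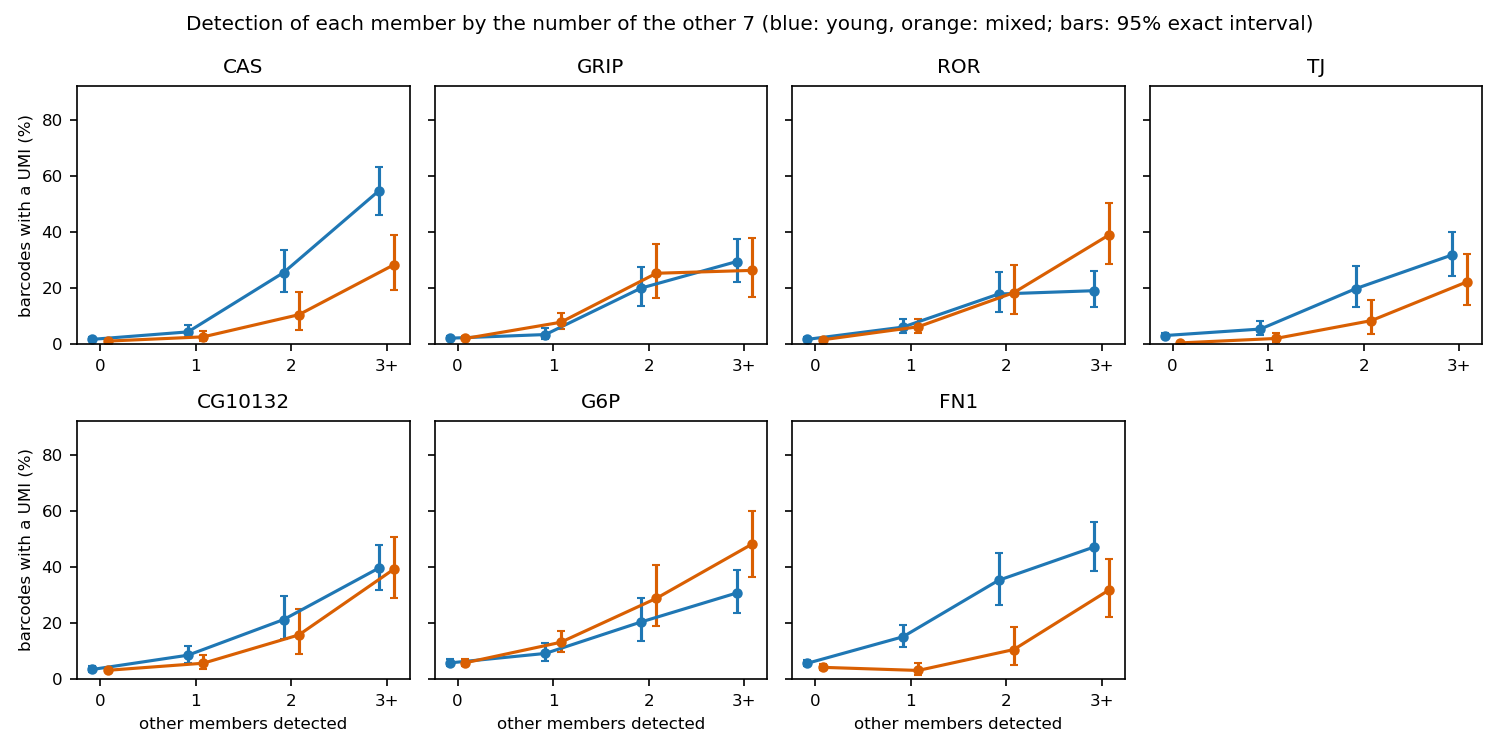
Share of kept barcodes with a UMI of each member in percent (y axis) by the number of the other 7 members detected in the same barcode (x axis, the last class is 3 or more), with 95% exact intervals, in the young (blue) and mixed sample (orange). The share with 3 or more others lies above that with 0 others for each of the 7 members shown in both samples. For CAS it is 54.7% and 28.4% against 1.75% and 1.12%. The barcodes were not thinned.

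Several genes carried the same identifier or symbol as a member, and reads of near-identical copies can be split between them. The gene m000049F_a2.46 shares the identifier of CAS; it had 124 young and 35 mixed counts and met CAS in 54 barcodes against 11.8 expected (4.57, 3.44 to 5.97). Summing it into CAS left the share of barcodes with at least 3 members at 8.67% and 4.44%. The counts of CAS may therefore be incomplete. The gene that shares the identifier of FN1, a000023F_p7.74, was found in 10 kept barcodes.

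For the comparison with genes of related pathways a barcode with at least 3 members was the unit, and 13.2% of the 9389 genes found in at least 20 kept barcodes met such barcodes more often than expected with an interval above 1, while 9.83% met them less often with an interval below 1. Of 17 ionotropic glutamate receptor genes, listed for GRIP, 1 had an interval above 1, SLC26A11/NMDAR2 (DAPMA1EVG030566) with 15 barcodes against 7.89 (interval of the ratio 1.06 to 3.14), and 0 had one below 1. GRIA4/GRIK (DAPMA1EVG023591), among the most abundant of them, met the group in 13 barcodes against 16.7. NMDA receptor GRIN1/NMDAR1 (DAPMA1EVG012137) met it in 2 against 6.06. The median ratio over the 17 receptor genes was 0.663, beside 1.005 over all genes tested. Over the 67 pairs of a receptor gene and a member with an expected number of at least 5, the median ratio was 1.03. The measures differed, and no depletion of the list is read from them.

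Of 4 synaptic scaffold and receptor partner genes 1 had an interval above 1, SHANK3/PROSAP (DAPMA1EVG025752), a postsynaptic scaffold, with 11 barcodes against 5.06 (2.17, 1.09 to 3.89), all of them young. Of all genes tested, 13.2% had an interval above 1 and 9.83% one below 1. The active-zone adaptor PPFIA1/LIPRIN (DAPMA1EVG013305) had 45 against 47.0 and the auxiliary subunit NETO2/CG34402 (DAPMA1EVG019781) 22 against 24.8. Among 17 neuron markers 3 had intervals above 1 and 3 below; SYT1/SYT1 (DAPMA1EVG032503), the calcium sensor of vesicle release, had 93 against 102, CPLX1/CPX (DAPMA1EVG022340) 71 against 67.3 and synapsin SYN1/SYN (DAPMA1EVG015402) 3 against 26.3 (0.114, 0.0235 to 0.334). The summed level of the neuron list was 2690 CPM in young barcodes with no member and 1615 CPM in those with at least 3, and 2233 and 1236 CPM in the mixed sample. The neuron list thus had a lower level in cells with the group in both samples.

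Of 18 genes of the ROR and Wnt receptor list, 6 had intervals above 1 and 1 below, beside 13.2% and 9.83% of all genes tested, and 11 passed in neither direction. The median ratio of the list was 1.09, beside 1.005 over all genes tested. FZD8/FZ2 (DAPMA1EVG020570), a frizzled receptor, met the group in 12 barcodes against 4.55 (2.64, 1.36 to 4.61). The other kinase genes named for ROR were MUSK/ROR (DAPMA1EVG022297), with 95 against 51.0 (1.86, 1.51 to 2.28), and NTRK2/ROR (DAPMA1EVG024022), with 29 against 16.8 (1.73, 1.16 to 2.48). The co-receptor LRP6/ARR (DAPMA1EVG025753) had 206 against 140 (1.48, 1.28 to 1.69), MUSK/NRK (DAPMA1EVG022977) 209 against 152 (1.37) and RYK/DNT (DAPMA1EVG012090) 35 against 22.9 (1.53). The gene with the interval below 1 was a ligand, WNT7B/WNT2 (DAPMA1EVG016562), with 2 against 9.96. The summed level of the list, ROR itself left out, was 2612 CPM with no member and 4730 CPM with at least 3 in the young sample, and 1818 and 2924 CPM in the mixed sample.

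In the list for glucose release 2 of 7 genes had intervals above 1, beside 13.2% of all genes tested. SLC37A4/CG3036 (DAPMA1EVG030788), in mammals the transporter that brings glucose 6-phosphate to glucose-6-phosphatase, met the group in 68 barcodes against 28.7 (2.37, 1.84 to 3.005), with ratios of 1.82 in the young and 3.31 in the mixed sample. Pyruvate carboxylase PC/PCB (DAPMA1EVG025432) had 58 against 38.4 (1.51, 1.15 to 1.95). The other glucose-6-phosphatase gene, G6PC2/G6P (DAPMA1EVG016399), had 16 against 24.95 (0.641, 0.366 to 1.04). It met the member G6P itself in 42 barcodes against 36.6 expected (1.15, 0.827 to 1.55). SLC37A2/MFS16 (DAPMA1EVG014758), the most abundant of the list, had 66 against 61.0.

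Of 5 genes listed with the large Maf factor 2 had intervals above 1, while 13.2% of all genes tested had one above 1 and 9.83% one below 1. MAFK/MAF (DAPMA1EVG011675), named for the small Maf proteins, had 55 against 32.2 (1.71, 1.29 to 2.22). FAXC/FAX (DAPMA1EVG030947) had 243 against 184 (1.32, 1.16 to 1.497), and its level was 1996 CPM in mixed barcodes with no member and 14583 CPM in those with at least 3, against 3719 and 6829 CPM in the young sample. Of 14 temporal and hormonal transcription factor genes, listed for the castor relative, 0 had an interval above 1 and 1 below; TMEM62/HTH (DAPMA1EVG018315) had 157 against 149 and RBM46/SYP (DAPMA1EVG032562) 1 against 3.15. Of 6 matrix adhesion genes, listed for FN1, 0 lay above and 3 below. FNDC3A/CG42389 (DAPMA1EVG021327) had 60 against 50.8, the integrin beta gene ITGB3/MYS (DAPMA1EVG014363) 20 against 31.8 and the integrin alpha gene ITGA8/IF (DAPMA1EVG015460) 0 against 13.7.

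Marker genes of other cell types were divided in barcodes with at least 3 members, and most passed in neither direction. The counts stand beside 13.2% of all genes tested with an interval above 1 and 9.83% with one below 1. Intervals lay above 1 for 3 and below 1 for 6 of 23 hemocyte genes, for 0 and 5 of 18 digestive genes and for 1 and 4 of 12 epidermis genes. For muscle that was 1 and 1 of 14, for photoreceptors 0 and 1 of 15, for fat cells 3 and 5 of 15, for ion transport 5 and 1 of 17 and for glia 1 and 2 of 5. The hemocyte list had 7172 CPM with no member and 2199 CPM with at least 3 in the young sample, and 7689 and 2867 CPM in the mixed sample. Its papilin genes were almost absent: SPINT3/PPN (DAPMA1EVG017704) met the group in 1 barcode against 39.6 expected (0.0253, 0.000640 to 0.141) and PAPLN/PPN (DAPMA1EVG018391) in 3 against 36.6 (0.0820, 0.0169 to 0.240). The collagen COL2A1/COL4A1 (DAPMA1EVG031663) had 40 against 36.2. No barcode with at least 3 papilin UMIs held 3 or more members, 0 of 225 in the young and 0 of 376 in the mixed sample. The intervals of these shares reach up to 1.63% and 0.976%.

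The epidermis list had 2318 and 740 CPM in the young sample and 1218 and 370 CPM in the mixed sample, with no member and with at least 3. The chitin synthase gene HAS1/KKV (DAPMA1EVG028384) met the group in 42 barcodes against 57.4 and the cuticle gene ARPP19/CPR49AE (DAPMA1EVG004278) in 90 against 81.2. The digestive list had 495 and 188 CPM in the young and 923 and 287 CPM in the mixed sample; the protease CTSS/CP1 (DAPMA1EVG024005) had 15 against 36.8 and NPC2/NPC2A (DAPMA1EVG015044) 11 against 13.3. Muscle genes SYNE1/MSP300 (DAPMA1EVG018311), at 182 against 179, and TTN/SLS (DAPMA1EVG027627), at 61 against 59.9, lay near the expected number. The photoreceptor genes GNAQ/GALPHAQ (DAPMA1EVG021690), at 92 against 77.01, and OPN4/RH2 (DAPMA1EVG031945), at 5 against 4.60, were also close to it. The summed levels of both lists were nevertheless lower with at least 3 members than with none. The muscle list had 7845 against 16837 CPM in the young sample and 803 against 1691 CPM in the mixed sample. The photoreceptor list had 996 against 1339 CPM in the young sample and 917 against 2319 CPM in the mixed sample.

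Other lists were split between genes. In the fat cell list, FABP3/FABP (DAPMA1EVG014822), a fatty acid binding protein, met the group in 225 barcodes against 97.3 (2.31, 2.02 to 2.63), while LRP4/YL (DAPMA1EVG034371) had 51 against 70.7 and the ferritin FTHL17/FER1HCH (DAPMA1EVG022329) 2 against 14.1. In the ion transport list 5 of 17 genes had intervals above 1 and 1 below, and the median ratio was 0.953. Its carbonic anhydrase CA2/CAH1 (DAPMA1EVG014910) had 106 against 124. The summed level of that list was higher with at least 3 members than with none. It was 3483 against 3117 CPM in the young sample and 3262 against 2621.5 CPM in the mixed sample. In the glia list glutamine synthetase GLUL/GS2 (DAPMA1EVG018780) had 198 against 163 (1.22, 1.05 to 1.40) and the glutamate transporter SLC1A3/EAAT1 (DAPMA1EVG027855) 23 against 52.4 (0.439, 0.278 to 0.658). GLUL/GS2 had 831 CPM with no member and 5970 CPM with at least 3 in the mixed sample but 1762 and 1555 CPM in the young sample. The summed glia list, GLUL/GS2 included, had 1255 and 6428 CPM in the mixed sample and 2432 and 1747 CPM in the young sample. No list of markers was therefore met by the group as a whole, and no cell type name is given to these cells.

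The genes whose detection was most alike to the number of members were ranked over the 4352 kept barcodes, thinned to 500 UMIs, with the mean of each code subtracted. Barcodes of a code share their library, so the correlations are descriptions. Over 7536 genes the median Pearson r was -0.001 and the 99th percentile 0.133. The highest was A2ML1/TEP2 (DAPMA1EVG025536), named for the thioester proteins of insect immunity, with an r of 0.392. It was found in 69.5% of young and 84.7% of mixed barcodes with at least 3 members, and in 5.05% and 5.20% of those with none. It met the group in 204 barcodes against 58.7 expected (3.48, 3.01 to 3.99), with ratios of 3.51 and 3.42 in the young and mixed samples.

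The second was FABP3/FABP (DAPMA1EVG014822), with an r of 0.313. It was followed by DAPMA1EVG011278 (0.310) and DAPMA1EVG019205 (0.296), which have no symbol, FAM162A/CG9231 (DAPMA1EVG016143, 0.285), DAPMA1EVG018540 (0.276) and DAPMA1EVG011794 (0.271), again without a symbol. The list closed with a monocarboxylate transporter relative, SLC16A14/CG13907 (DAPMA1EVG012183, 0.263), SPON1/FAT (DAPMA1EVG031870, 0.262) and a nucleoside transporter, SLC29A3/ENT2 (DAPMA1EVG027988, 0.258). These genes had higher levels in barcodes with at least 3 members in both samples. DAPMA1EVG011278 had 1032 CPM against 56.9 CPM with no member in the young sample and 1274 CPM against 74.3 CPM in the mixed sample. FAM162A/CG9231 had 6677 CPM against 701 CPM in the mixed sample. Measured the same way against the other 7, the 7 members had an r of 0.259 (CAS), 0.225 (CG10132), 0.201 (G6P), 0.183 (ROR), 0.175 (TJ), 0.173 (FN1) and 0.147 (GRIP). The r of TEP2 with all 8 members was above that of each of these 7 with the other members.

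Across the 10 codes, the genes whose log2(CPM + 1) went most with the summed level of the members were CSPG4/KON (DAPMA1EVG027249, r of 0.986), DAPMA1EVG014780 (0.973), DAPMA1EVG011794 (0.969), RDH13/CG2064 (DAPMA1EVG013139, 0.968) and DOCK3/SPG (DAPMA1EVG025128, 0.961). Over 8002 genes the median r across codes was -0.158 and the 99th percentile 0.849, so high values were common with only 10 codes. The codes share animals and preparation in ways the files do not state. In single cells 4 of the 5 genes named met the group more often than expected, CSPG4/KON in 89 barcodes against 33.7 (2.64, 2.12 to 3.25). RDH13/CG2064 met it in 1 barcode against 14.9, so it followed the group across codes and not within cells.

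**Figure D5:**
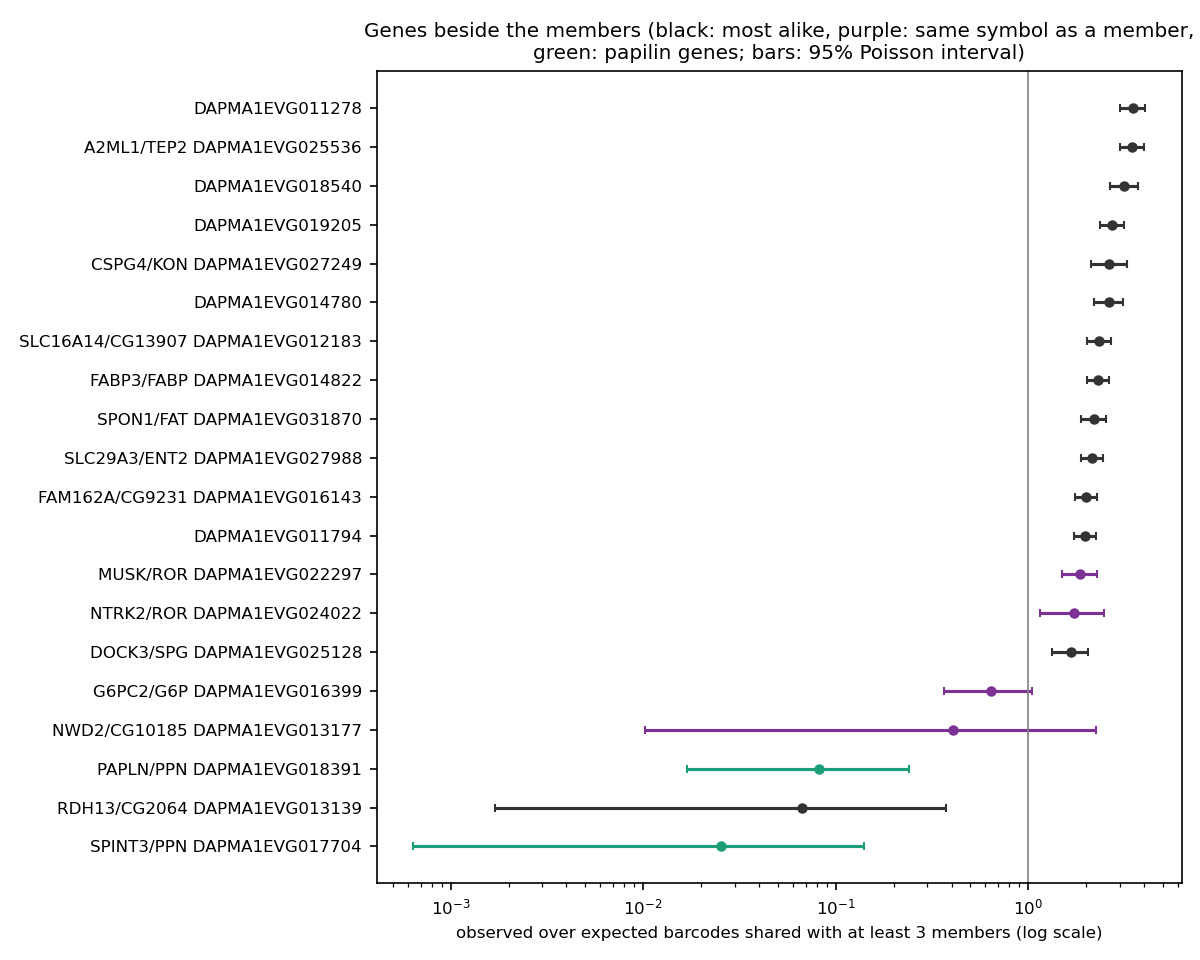
Observed over expected number of kept barcodes that a gene shares with barcodes of at least 3 members (x axis, log scale, expected within code and depth class) with 95% Poisson intervals, for the genes most alike to the group (black), genes carrying the symbol of a member (purple) and the papilin genes (green). A2ML1/TEP2 stands at 3.48 and the papilin genes at 0.0820 and 0.0253; MUSK/ROR and NTRK2/ROR lie at 1.86 and 1.73 and G6PC2/G6P at 0.641.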

How the data were processed

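The values are raw counts, which the authors deposited as sparse matrices of integers, per the file headers, with gene and barcode lists. Alignment settings, the genome build and how UMIs were merged are not given in the sources used here. Codes and lanes come from the barcode lists. Lanes of a code were pooled, a cell could occur in both, and the lists hold no barcode sequences that would show it. None of the member identifiers was found in the RefSeq gene table, so names come from the files and no sequence is shown.

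Barcodes with at least 500 UMIs were summed per sample and code. Ratios used genes of 50 counts or more in all, with counts under 3 set to 3. Expected joint detections were computed from single frequencies within each code, or within code and depth class. Barcodes were thinned to 500 UMIs without replacement (seed 1). Marker classes needed 3 UMIs over 2 genes. The co-detection and ratio procedures were tested on simulated data. Doublets were not removed.

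The members, the gene lists and the tests were chosen with earlier results of these data known. Besides the members, the text names the 10 genes most alike across barcodes, the 5 most alike across codes and the 2 most abundant genes of each list found in at least 20 barcodes. Other genes named were chosen after their values were seen: SLC26A11/NMDAR2, GRIN1/NMDAR1, SHANK3/PROSAP, SYN1/SYN, FZD8/FZ2, MUSK/ROR, NTRK2/ROR, RYK/DNT, WNT7B/WNT2, SLC37A4/CG3036, PC/PCB, ITGA8/IF, SPINT3/PPN, FTHL17/FER1HCH and, in the closing section, the PIWIL1/AUB, TUD and MCM genes. Results of some genes that this rule names, 1 member among them, are not reported here. Human and fly symbols are the submitters' and do not always name the same family. Python 3.11.15, NumPy 2.4.6, SciPy 1.17.1, pandas 2.3.3, matplotlib 3.10.9 and, for TMM factors only, edgeR 4.0.16 were used. Alternatives were a minimum of 300 or 1000 UMIs, each code left out, all barcodes summed, TMM factors, minimums of 10 or no counts, thinning, and other expected numbers; 2 more were added after seeing the data.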

Additional observations from a re-analysis of the deposited data

How the results depend on the processing

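No paired analysis was possible because each group had 1 sample. The co-detection of the 28 pairs kept its direction under every alternative run: none of 476 values for single pairs lay at or under 1, and 475 of their intervals lay above 1. These values reuse the same pairs and barcodes, from which the members had been chosen, so they give no separate support. The median ratio of 3.28 was 4.38 with a minimum of 300 UMIs and 2.59 with 1000; under the other alternatives it ran from 2.66 to 3.58. The share of cells with at least 3 members followed depth. It was 3.71% (young) and 2.65% (mixed) with a minimum of 300 UMIs, 15.1% and 6.77% with 1000, and 3.33% and 1.69% after thinning. Single codes moved it: the young share was 7.01% without CH1 and 9.79% without Y2, and the mixed share 2.87% without FYB, 5.44% without MY2 and 6.30% without MY1 and MY2 together. The single member past 4-fold, TJ, lay at the threshold: 0 members passed it with a minimum of 300 UMIs, over every deposited barcode, or without CH1, Y2, F4W, FYH, MY1 or MY2, and 2 passed it without FYB or with TMM factors. Of 144 alternative ratios of single members, 102 lay within the interval of the reported value and 42 did not; the ratio of GRIP, 0.886, was 1.01 without CH1 and 1.11 without MY2. With 1 sample per group, no depth of sequencing replaces a replicate.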

Other observations

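Genes of the germline and proliferation list, which was matched for another purpose, were divided in the barcodes with at least 3 members. PIWIL1/AUB (DAPMA1EVG018095), named for the PIWI proteins that bind small RNAs in animal gonads, met the group in 171 barcodes against 68.4 expected within code and depth class (2.50, 2.14 to 2.91). It was found in 62.1% of young and 64.3% of mixed barcodes with at least 3 members and in 12.1% and 4.43% of those with none. A second PIWIL1/AUB gene, DAPMA1EVG018108, met the group in 41 barcodes against 11.1 (3.70, 2.66 to 5.03). Other PIWIL1/AUB genes did not: DAPMA1EVG012030 had 53 against 72.1 (0.735, 0.550 to 0.961) and DAPMA1EVG018783 had 6 against 19.4 (0.309, 0.113 to 0.673). The Tudor relatives TDRD1/TUD (DAPMA1EVG024108) and TDRD15/TUD (DAPMA1EVG024057) had 3 against 10.6 and 9 against 24.8.

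Cell cycle genes were divided too. The mitotic cyclins CCNB1/CYCB (DAPMA1EVG030556) and CCNB2/CYCB (DAPMA1EVG019766), the most abundant of the list, met the group in 26 barcodes against 55.1 (0.472, 0.308 to 0.691) and 34 against 58.8 (0.578, 0.401 to 0.808). The replication helicase genes MCM6/MCM6 (DAPMA1EVG025209) and MCM9/MCM2 (DAPMA1EVG021873) met it in 23 against 12.8 (1.80, 1.14 to 2.71) and 24 against 9.86 (2.43, 1.56 to 3.62). Of the 18 genes of the list found in at least 20 barcodes, 6 had intervals above 1 and 7 below, beside 13.2% and 9.83% of all genes tested.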
